A study of Mus musculus with 8 samples.

Results

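Il17re, Pigr and Reg4 are 3 genes of mucosal defence, taken by symbol from the 8 deposited plate tables and followed through each reporter line and BMP4 condition. They are 3 of the 16115 genes used from those tables. Their levels in these same conditions were known when they were chosen, so their values stand here as a description, with standard errors and intervals and without tests.

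Mouse intestinal organoids (C57BL/6) carrying a hormone reporter were grown without added BMP4, with BMP4 for 24 h or with BMP4 for 4 days, and live reporter-positive enteroendocrine cells were sorted singly into 384-well plates. The Tac1 line (titled Tac1-Cre) and the Gip line (titled Gip-Cre) carry Cre drivers, and the Gcg line (titled Gcg-Venus) a fluorescent protein. Every condition stands side by side on 5 plates (Tac1 plates 1 and 2, Gcg plates 1 and 2 and a Gip plate). On these plates each condition took the same block of columns, the widest for 4 days. Condition and position on the plate therefore cannot be told apart there. A further 3 Tac1 plates hold a single condition, 1 with 24 h and 2 with 4 days of BMP4. The labels name no dose, no separate cultures and no number of animals for the plates, so the spread between plates may be technical, and all groups share the organoid setting without immune cells.

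BMP4 is a secreted signal of the intestinal mesenchyme that is stronger toward the villus tip than in the crypt. Il17re encodes the receptor subunit that pairs with Il17ra to bind interleukin 17C, a cytokine made by epithelial cells themselves. Pigr encodes the polymeric immunoglobulin receptor, which carries dimeric IgA through epithelial cells and releases it into the lumen with a fragment of itself. Reg4 encodes a secreted C-type lectin of the regenerating family and is known from enteroendocrine cells and from secretory cells of deep crypts. Tac1, the precursor of substance P, marks enterochromaffin cells, the serotonin-making subtype, in which Tph1 catalyses the first step of serotonin synthesis.

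In GENCODE M21 (GRCm38) all 3 genes lie on the plus strand. Il17re (ENSMUSG00000043088.16) spans chr6:113458484-113470758, Pigr (ENSMUSG00000026417.13) spans chr1:130826684-130852249 and Reg4 (ENSMUSG00000027876.4) spans chr3:98222156-98236748. Il17rc, another receptor subunit, begins 668 bases after the end of Il17re on the same strand. The stretches before the starts of Pigr and Reg4 are shown to describe their letters, and their part in the BMP4 values was not tested. They are from RefSeq (GRCm38.p6), plus strand, 5′ to 3′, for chr1:130826434-130826683 and chr3:98221906-98222137, and the capitals mark matches on either strand to an E-box (CANNTG, which includes CACGTG) or to the GATA motif AGATAA.
Pigr promoter: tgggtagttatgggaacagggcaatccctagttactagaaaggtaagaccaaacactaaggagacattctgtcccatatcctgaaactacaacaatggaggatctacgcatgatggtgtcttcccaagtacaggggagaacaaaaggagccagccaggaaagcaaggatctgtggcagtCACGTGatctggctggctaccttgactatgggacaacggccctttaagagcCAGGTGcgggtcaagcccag
Reg4 promoter: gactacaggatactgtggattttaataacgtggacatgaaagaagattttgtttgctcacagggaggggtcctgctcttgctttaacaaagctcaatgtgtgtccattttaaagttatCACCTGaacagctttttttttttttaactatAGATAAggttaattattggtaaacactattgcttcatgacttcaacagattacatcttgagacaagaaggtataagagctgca
The 250 bases of Pigr hold 2 matches to CANNTG, 1 of which is CACGTG, and the 232 bases of Reg4 hold 1 match to CANNTG and 1 to AGATAA. Of all 32851 RefSeq promoter windows, 66.2% hold CANNTG and 6.02% hold CACGTG at the length of the Pigr window, and 63.8% hold CANNTG and 9.55% hold AGATAA at that of Reg4. Neither window holds the Smad motifs GGCGCC or GTCTAGAC, or the interferon response motif that was also searched. At the Pigr and Reg4 lengths, GGCGCC is in 9.59% and 8.72% of all windows and GTCTAGAC in 0.167% and 0.164%. The interferon motif is in 2.98% and 2.76%. Most windows thus lack each of these motifs, and nothing is read from their absence here. A match describes letters and is not a shown binding site. The window of Il17re overlaps an annotated exon and is not shown.

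Of 3072 wells, 1006 reached 2000 transcripts and were used, with a median of 2802 to 10052 transcripts per kept cell by plate, lowest on the single-condition Tac1 plates and highest on the Gcg plates. Counts were added up per plate and condition where at least 10 cells were kept, which gave 17 sums of 98166 to 1251850 transcripts. The 24 h block of Tac1 plate 2 held 9 cells and has no sum. Wells are named by number on every plate, so names cannot show shared cells, and 0 kept wells repeated the values of another. Levels are CPM, that is counts scaled to a common total of transcripts per sum, with exact Poisson intervals at 95%, which cover counting error only. The 5 Tac1 tables are rounded and list mitochondrial genes while the other 3 are not rounded and list none, so a difference between the Tac1 line and the others cannot be told apart from that difference in file making.

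**Figure D1:**
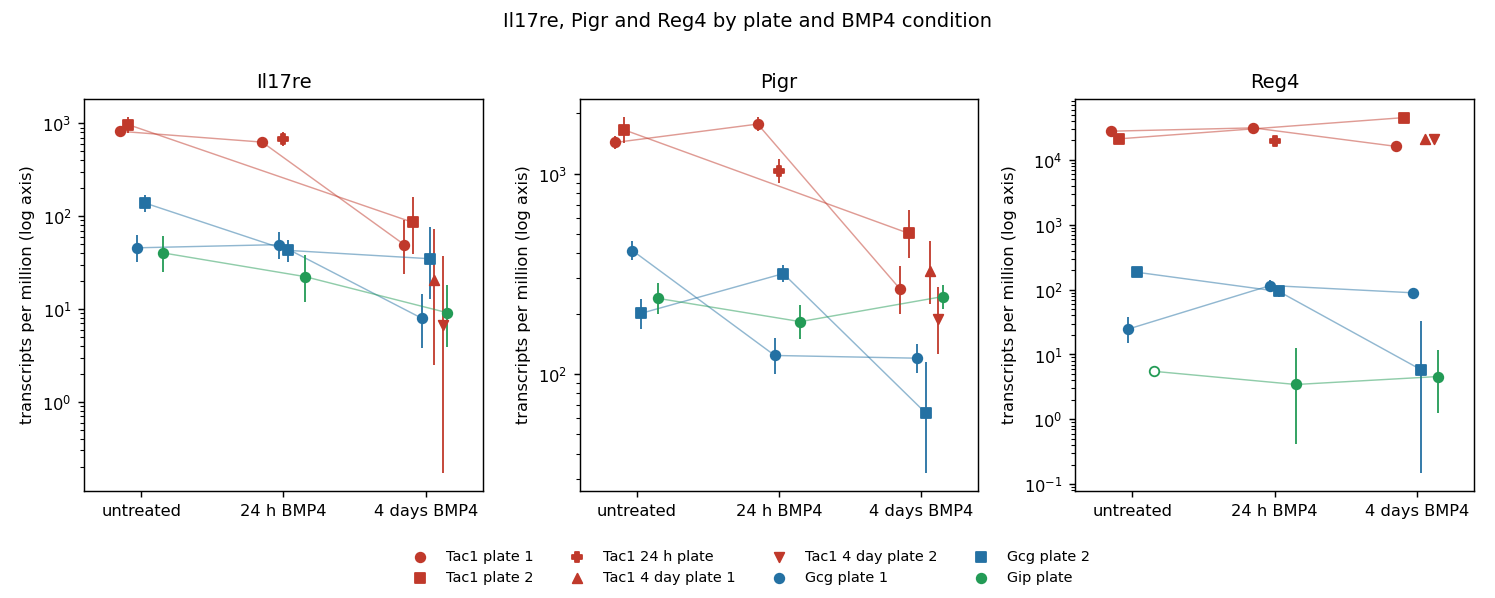
Level of Il17re, Pigr and Reg4 (CPM, log axis) in each sum of at least 10 cells, without BMP4, after 24 h and after 4 days. Colour gives the reporter line, symbols the plate, lines join sums of one plate, bars are Poisson intervals at 95% (counting error only), and the open symbol marks a count of 0 drawn at the floor of 3 counts. Il17re in the Tac1 line lies at 6.73 to 85.6 CPM after 4 days and at 822 and 969 CPM without BMP4, while the lowest Tac1 sum of Reg4 is 16252 CPM.

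Il17re was highest in untreated and 24 h cells of the Tac1 line and lower after 4 days of BMP4 on every plate. On Tac1 plate 1 it stood at 822 CPM without BMP4, 628 CPM after 24 h and 49.2 CPM after 4 days, from 379, 220 and 10 transcripts. On Tac1 plate 2 it stood at 85.6 CPM after 4 days (9 transcripts) and at 969 CPM without BMP4 (101 transcripts). On the single-condition Tac1 plates it stood at 679.8 CPM after 24 h, and at 20.4 and 6.73 CPM after 4 days, the last 2 from 2 and 1 transcripts. Both untreated sums and both 24 h sums of the Tac1 line therefore lay above all 4 of its 4 day sums.

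The other lines had less Il17re than the Tac1 line without BMP4 and after 24 h, and on each of their plates it was lower after 4 days than without BMP4. Gcg plate 1 had 45.7 CPM without BMP4, 49.5 CPM after 24 h and 7.99 CPM after 4 days. Gcg plate 2 had 138, 42.9 and 34.8 CPM without BMP4, after 24 h and after 4 days. The Gip plate had 40.4, 22.4 and 9.14 CPM in that order. On Gcg plate 1 the 24 h sum lay near the untreated one, and on Gcg plate 2 nearer the 4 day one. On Gcg plate 1 after 24 h, 1 cell held 34.2% of the 38 transcripts. On Gcg plate 2 after 4 days, 1 cell held 66.7% of the 6 transcripts. The 4 day over 24 h ratio of Gcg plate 2 had a counting interval of 0.285 to 1.89. Whether the Gcg plates differ in time course was not tested.

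Per plate, Il17re was 3.97- to 16.7-fold lower after 4 days of BMP4 than without it, on 5 of 5 plates. The counting interval of the 4 day over untreated ratio was 0.0285 to 0.111 on Tac1 plate 1 and 0.0902 to 0.570 on Gcg plate 2, the plates with the strongest and the weakest change. Fitted over the 5 plates, the log2 change was -2.81 ± 0.36 (SE, edgeR) at 4 days, -0.67 ± 0.32 at 24 h and -2.15 ± 0.39 between 24 h and 4 days. At 24 h the gene was lower on 3 of 4 plates. Fitted by line, the 4 day change was -3.54 ± 0.51 on the Tac1 plates and -2.24 ± 0.54 on the Gcg plates, a difference of 1.29 ± 0.78 (Gcg minus Tac1).

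In the fit over all genes, 277 of 8308 passed an adjusted p of 0.05 at 4 days (edgeR quasi-likelihood test, Benjamini-Hochberg), 3.33% of those tested, and 1 of the 3 genes described here, Il17re, was among them. All 3 passed the filter on low counts. The background was 0.0963% at 24 h with 0 of the 3 called, 0.0722% on the Gcg plates at 24 h with 0 called, 0.397% between 24 h and 4 days with Il17re called, 2.01% on the Tac1 plates at 4 days with Il17re called, and 0.277% on the Gcg plates at 4 days with 0 called. For the difference between the Gcg and Tac1 changes it was 0%, with 753 genes at an unadjusted p under 0.05 (edgeR). All these comparisons share sums. The genes were picked on these contrasts, so nothing is read from these counts.

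**Figure D2:**
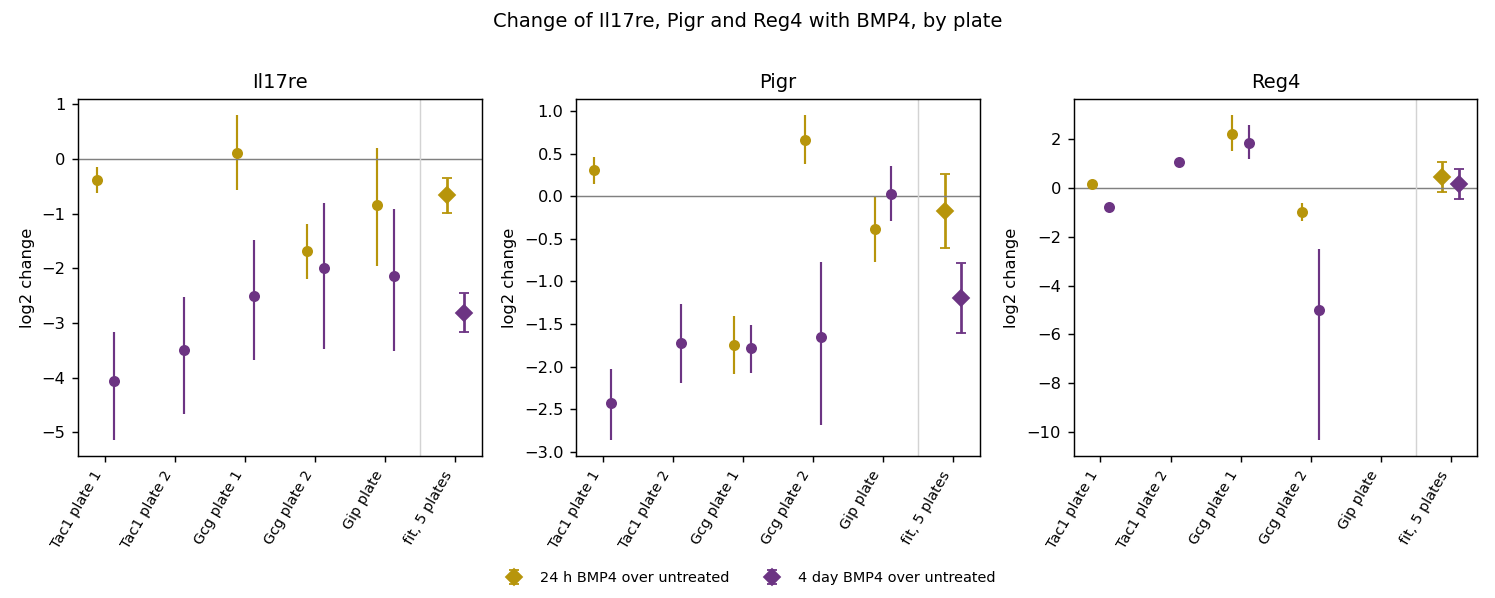
Log2 change of Il17re, Pigr and Reg4 over untreated cells of the same plate after 24 h and after 4 days of BMP4, with the exact counting interval at 95% of each plate's ratio, and at the right the change fitted over the 5 plates with its SE. Il17re is below 0 at 4 days on 5 of 5 plates, Pigr on 4 of 5 and Reg4 on 2 of the 4 drawn. Reg4 on the Gip plate is left out of the plot, because no Reg4 transcript was counted there without BMP4.

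Fewer single cells of the Tac1 line held Il17re after 4 days. Each kept cell was thinned to 2000 transcripts, so that depth did not set detection. In the Tac1 line, 14.6% and 12.5% of cells on the 2 mixed plates, and 3.33% and 2.22% on the single-condition plates, held at least 1 Il17re transcript after 4 days, against 70.6% and 75.0% without BMP4. After 24 h the share was 51.9% on Tac1 plate 1 and 50% on the 24 h plate. The Wilson interval on Tac1 plate 1 ran from 6.88% to 28.4% at 4 days and from 58.9% to 80.1% without BMP4.

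No cell type known to lack Il17re was sorted, so the Gip plate gives the lowest share found here: 0 of 135 cells after 4 days, for which the Wilson interval reaches 2.77%, and 7.94% without BMP4, at a median depth of 5210 transcripts per cell against 2802 to 5050 on the Tac1 plates. The 4 day share on the single-condition Tac1 plates (2.22% and 3.33%) lies between those shares.

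Wells left out for low content gave a further reading of Il17re on the same plates. Whether each of these wells held a cell was not tested. In wells with 200 to 2000 transcripts, 3 transcripts were counted in 198 wells and 0 in 247 wells of the 4 day Tac1 plates, which are 17.5 CPM and, at 3 counts, a limit of 14.2 CPM. The same kind of wells held 822 CPM on the 24 h Tac1 plate, from 80 transcripts in 120 wells. On the mixed plates they held 139 and 50.3 CPM after 4 days, against 819.8 and 1662 CPM without BMP4.

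The cells sorted from the Tac1 line did not all carry the same hormone, so Il17re was also read within cells of one leading hormone, the one with the most transcripts and at least 10. Sst, the somatostatin gene, led 26 to 39 cells per condition on Tac1 plate 1, 39 on the 24 h plate and 4 on the second 4 day plate, and none on Tac1 plate 2 or the first 4 day plate, so the comparison within Sst-led cells rests on 1 plate. In Sst-led cells of Tac1 plate 1, Il17re stood at 77.5 CPM after 4 days (26 cells) and at 749 CPM without BMP4 (39 cells). Cells led by Tac1 itself, present in number without BMP4, had 1010.5 CPM in 15 cells of plate 1 and 1162 CPM in 5 cells of plate 2. Cells led by Sct, the secretin gene, which were numerous after 4 days, had 0 Il17re transcripts in 10 cells of plate 1 and 2 transcripts in 8 cells of plate 2. Il17re was thus lower after 4 days within Sst-led cells of plate 1 too. The level of Sst itself differed by plate, at 15951 CPM on Tac1 plate 1 and 9.59 CPM on Tac1 plate 2 without BMP4. Of the 68 untreated cells of plate 1, 61 held a Tph1 transcript. Sst-led cells are therefore not shown to be a cell type of their own.

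On the Gcg and Gip plates the reading differed between the leading hormones. Gcg-led cells, which make glucagon and its related peptides, held 0 Il17re transcripts after 4 days on both Gcg plates (24 and 5 cells), against 28.1 CPM (37 cells) on plate 1 and 135 CPM (56 cells) on plate 2 without BMP4. Gip-led cells of the Gip plate had 8.14 CPM after 4 days (106 cells) and 50.01 CPM without BMP4 (52 cells). Sst-led cells of the Gip plate had 12.9 CPM after 4 days and 13.8 CPM without BMP4, from 3 and 2 transcripts. Nts-led cells, which make neurotensin, had 11.8 CPM after 4 days and 45.1 CPM without BMP4 on Gcg plate 1, and 13.0 CPM after 4 days and 18.6 CPM without BMP4 on Gcg plate 2, the last from 1 transcript each. Il17re was thus lower after 4 days in Gcg-led and Gip-led cells, while in Sst-led cells of the Gip plate and Nts-led cells of Gcg plate 2 the counts are too few to show a difference.

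Other features moved with BMP4 in the Tac1 line beside Il17re. The 16 enteroendocrine marker genes added up to 38119 to 46327 CPM after 4 days and to 85734 to 86739 CPM without BMP4, and 12 to 16 of them were detected per sum after 4 days, against 13 to 15 without BMP4. Most of that difference lay in 1 of them, Chgb, at 15311 to 20250 CPM after 4 days and 55726 to 57111 CPM without BMP4. Chga, another of them, stood at 17491 to 23416 CPM after 4 days and 22211 to 25048 CPM without BMP4. Tac1 itself stood at 143 to 428 CPM after 4 days and at 2567 to 3174 CPM without BMP4. Kcnq1ot1, a nuclear antisense RNA, stood at 17784 to 99623 CPM after 4 days and at 8418 to 17827 CPM without BMP4. In cells with under 5% of their transcripts from Kcnq1ot1, a limit set after the data were seen, Il17re stood at 46.5, 119, 25.6 and 7.07 CPM in the 4 Tac1 sums at 4 days, against 832 and 1045 CPM without BMP4. Fitted over those cells, the 4 day change of Il17re was -2.93. The part of the marker and Kcnq1ot1 levels in the Il17re values was not tested. In a sum, fewer cells with a transcript and less RNA per cell cannot be told apart.

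Il17rc pairs with Il17ra in the receptor for interleukins 17A and 17F. Like its neighbour Il17re, it was lower after 4 days on the mixed Tac1 plates. Its level on the mixed Tac1 plates was 14.8 and 57.1 CPM after 4 days (3 and 6 transcripts), against 145 and 278 CPM without BMP4 (67 and 29 transcripts). The change there was -2.46 ± 0.47 on the log2 scale (edgeR adjusted p = 0.033). On the Gcg plates it was -0.01 ± 0.39, with 35.9 and 46.4 CPM after 4 days and 43.3 and 46.1 CPM without BMP4. After 24 h Il17rc had 151 CPM on Tac1 plate 1 and 51.9 CPM on the 24 h Tac1 plate (53 and 10 transcripts). The single-condition 4 day plates held 0 transcripts and 74.0 CPM (11 transcripts). Unlike those of Il17re, the 24 h and 4 day sums of Il17rc thus overlapped in the Tac1 line.

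The difference in the Il17rc change between the lines was 2.45 ± 0.62 (Gcg minus Tac1) and did not pass over all genes (edgeR unadjusted p = 0.0031, adjusted p = 0.38). Over the 5 plates together Il17rc stood at a log2 change of -0.81 ± 0.39 (edgeR adjusted p = 0.35). The call in the Tac1 line rests on both plates: without Tac1 plate 1 the change was -1.94 and without Tac1 plate 2 it was -3.11, with edgeR adjusted p-values of 0.27 and 0.20. It was also lost when Kcnq1ot1-rich cells were left out, at -2.33 (edgeR adjusted p = 0.17). How reads in the stretch between Il17re and Il17rc were assigned is not given in the sources used here.

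Il17ra, the shared subunit, did not pass at 4 days, with a log2 change of -0.32 ± 0.38 (edgeR adjusted p = 0.79). Its sums held 1 to 33 transcripts. Il17rb and Il17rd were detected with at most 6 transcripts in any sum and were not tested. Of the 22 listed genes of the interleukin 17 pathway other than Il17re, 18 were in the tables and 8 were tested. None of the 8 passed at 4 days in the pooled edgeR fit, where the unadjusted p of 1 was under 0.05. By DESeq2, 2 genes of all the lists passed there, Ccl28 and Zg16. The median log2 change of the 8 interleukin 17 pathway genes at 4 days was -0.21, beside 0.00 over all 8308 genes. Of 19 listed epithelial targets of interleukin 17, 4 were in the tables and 0 reached the count needed for a test.

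**Figure D3:**
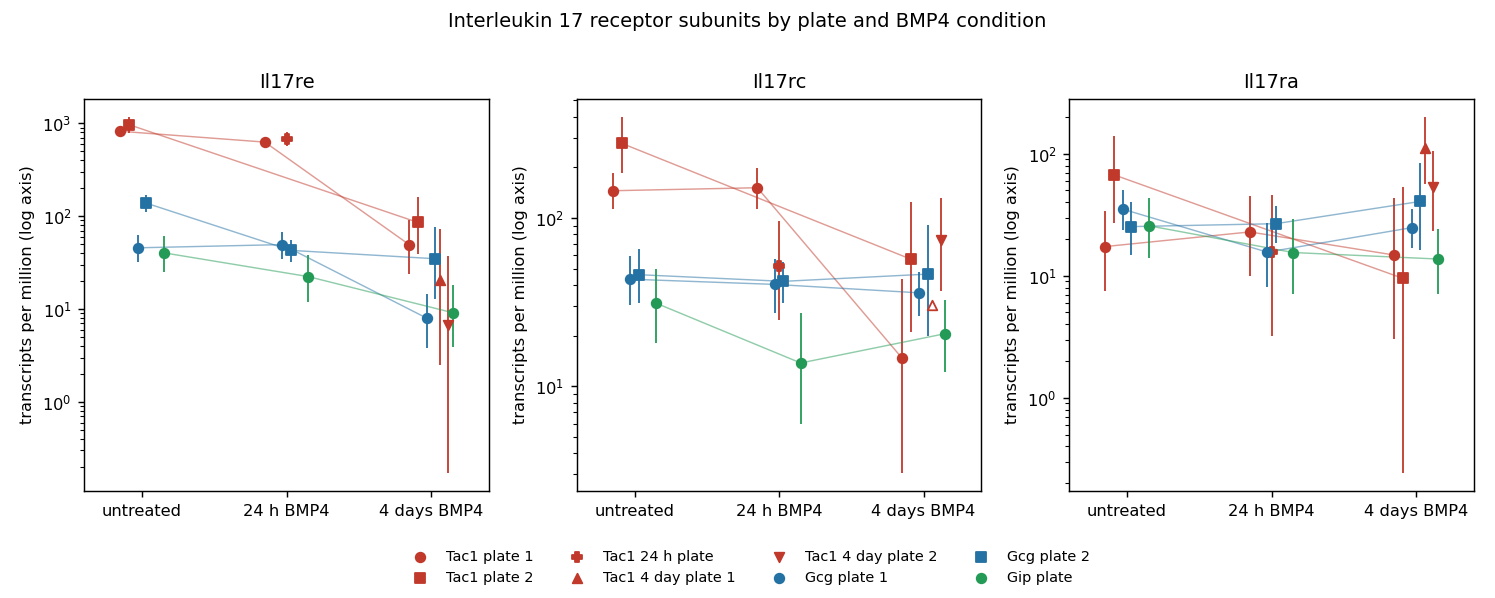
Level of the receptor subunits Il17re, Il17rc and Il17ra (CPM, log axis) in each sum, drawn as in the plot of the 3 genes by condition. On the mixed Tac1 plates Il17rc lies at 14.8 and 57.1 CPM after 4 days and at 145 and 278 CPM without BMP4, and the 2 single-condition 4 day plates hold 0 transcripts and 74.0 CPM, while the Gcg sums stay between 35.9 and 46.4 CPM.

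Pigr was highest in the Tac1 line and lower after 4 days of BMP4 in the Tac1 and Gcg lines, with no such difference on the Gip plate. On Tac1 plate 1 it stood at 1433 CPM without BMP4, 1771 CPM after 24 h and 266 CPM after 4 days. On Tac1 plate 2 it stood at 504 CPM after 4 days and 1659 CPM without BMP4. The single-condition Tac1 plates had 1033 CPM after 24 h, and 326 and 188 CPM after 4 days. The Tac1 sums without BMP4 and after 24 h all lay above the 4 Tac1 sums at 4 days.

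The Gcg plates differed in their 24 h level of Pigr. Gcg plate 1 had 413 CPM without BMP4, 124 CPM after 24 h and 119.8 CPM after 4 days. Gcg plate 2 had 201, 317 and 63.9 CPM without BMP4, after 24 h and after 4 days. The Gip plate had 238, 182 and 243 CPM in that order. The richest cell of the untreated Gcg plate 1 sum held 40.1% of its Pigr, and the richest of the 4 day Gcg plate 2 sum held 63.7% of 11 transcripts.

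Per plate, Pigr was 5.39-, 3.29-, 3.45- and 3.14-fold lower after 4 days on Tac1 plates 1 and 2 and Gcg plates 1 and 2. On the Gip plate the 4 day over untreated ratio was 1.02, with a counting interval of 0.817 to 1.28. The fitted log2 change over the 5 plates was -1.19 ± 0.41 at 4 days (edgeR, SE), -0.17 ± 0.44 at 24 h and -1.02 ± 0.46 between 24 h and 4 days. By line it was -1.82 ± 0.58 on the Tac1 plates and -1.52 ± 0.58 on the Gcg plates, which differ by 0.30 ± 0.81 (Gcg minus Tac1). Without the Gip plate the pooled change was -1.64.

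The share of Tac1 cells with a Pigr transcript at equal depth was 26.8% and 56.2% on the mixed plates after 4 days, and 46.7% and 17.8% on the single-condition plates, against 82.4% and 100% without BMP4. After 24 h it was 79.6% and 77.1%. The Gip plate had 30.4% after 4 days and 41.3% without BMP4. At 4 days the Tac1 shares thus overlap the Gip share, and without BMP4 they lie above it.

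Within Sst-led cells of Tac1 plate 1, Pigr stood at 336 CPM after 4 days and at 1842 CPM without BMP4. Within Gcg-led cells it stood at 165 CPM after 4 days against 349 CPM without BMP4 on Gcg plate 1, and at 241 CPM against 218 CPM on Gcg plate 2, the 4 day value from 8 transcripts in 5 cells. In Gip-led and Sst-led cells of the Gip plate it stood at 241 and 246 CPM after 4 days, and at 247 and 213 CPM without BMP4. In low-content wells of the mixed Tac1 plates Pigr stood at 655 and 654 CPM after 4 days, against 2635 and 4284 CPM without BMP4.

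Enterocytes are also known to express Pigr. Cells with at least 2% of their transcripts from 17 enterocyte markers numbered 200 of 1006, and 110 cells lay near that limit (1.5% to 2.5%). The 200 cells held 26.6% of all Pigr transcripts. The enterocyte markers added up to 12158 to 38624 CPM on the Gcg plates after 4 days and to 23446 to 31421 CPM without BMP4, and to 1779 to 5228 CPM in the Tac1 line after 4 days and 1103 to 1928 CPM without BMP4. The part of these cells in the change was not tested beyond leaving them out: without the cells rich in enterocyte or goblet markers, the 4 day change of Pigr was -1.08 over the 5 plates and -1.17 on the Gcg plates.

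Ccl28, the chemokine that draws IgA-secreting cells to mucosal epithelium, fell in the pooled fit after 4 days of BMP4, by 1.98 ± 0.47 on the log2 scale (edgeR adjusted p = 0.031), with lower levels on the Gcg and Gip plates. Fitted by line, it did not pass on the Gcg plates, at -3.33 ± 0.66 (edgeR adjusted p = 0.12), and stood at 0.04 ± 0.88 on the Tac1 plates (edgeR adjusted p = 1). It had 3.99 and 16 CPM after 4 days on Gcg plate 1 and the Gip plate, against 36.3 and 56.9 CPM without BMP4. On Gcg plate 2 no transcript was counted after 4 days, which allows up to 17.4 CPM, against 46.1 CPM without BMP4. Tac1 plates 1 and 2 had 14.8 and 9.51 CPM after 4 days, against 13.0 and 19.2 CPM without BMP4, and no Tac1 sum held more than 7 transcripts. Leaving out Gcg plate 1, Gcg plate 2 or the Gip plate ended the call, at -1.53, -1.76 and -2.20 (edgeR adjusted p = 0.15, 0.084 and 0.18).

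Of the 30 listed genes of IgA transport and its control other than Pigr, 26 were in the tables and 20 were tested. Ccl28 was the only one that passed at 4 days in the pooled edgeR fit, and the median log2 change was 0.06, beside 0.00 over all genes. Igj, which encodes the chain that joins IgA into dimers in plasma cells, had 0 to 3 transcripts per sum. Ptprc, which marks white blood cells, stood at 0 to 4.92 CPM in the Tac1 line after 4 days and at 0 to 6.51 CPM without BMP4. The 4 immune markers found in the tables added up there to 67.3 to 256.8 CPM after 4 days, with 2 to 4 of them detected, and to 45.5 to 86.3 CPM without BMP4, with 1 to 3 detected. Their part in the Pigr values was not tested.

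Reg4 set the Tac1 line apart from the others more than either of the other 2 genes did. Its Tac1 sums stood at 27792 and 21213 CPM without BMP4, at 31271 and 19459.8 CPM after 24 h, and at 16252, 45056, 21362 and 21074 CPM after 4 days. The Gcg plates had 24.6, 116 and 89.5 CPM (plate 1) and 186, 93.8 and 5.81 CPM (plate 2) without BMP4, after 24 h and after 4 days. The Gip plate had 0, 2 and 4 transcripts in that order, where 0 transcripts allow up to 5.50 CPM. The lowest Tac1 sum was 114.2-fold above the highest sum of the other lines without BMP4, 168-fold after 24 h and 182-fold after 4 days.

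The other 2 genes separated the lines less, and no longer at 4 days. The lowest Tac1 sum of Il17re was 5.95-fold above the highest of the other lines without BMP4 and 12.7-fold after 24 h. For Pigr these ratios were 3.47 and 3.26. After 4 days the Tac1 sums overlapped those of the Gcg and Gip plates for both genes.

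On the Gcg plates Reg4 came from a few cells. The 5 richest cells held 93.7% of it on plate 1 and 97.9% on plate 2, among 229 and 182 cells. At equal depth 2.41% to 4.69% of Gcg cells held a Reg4 transcript, against 0% to 2.96% on the Gip plate and 62.5% to 100% in the Tac1 line. No cell type known to lack Reg4 was sorted. On the Gip plate no cell held more than 1 transcript, and the Gcg shares overlap the Gip shares, at median depths of 9531 and 10052 transcripts on the Gcg plates and 5210 on the Gip plate.

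The summed level of Reg4 did not move one way with BMP4. It was 1.71-fold lower on Tac1 plate 1 after 4 days and 2.12-fold higher on Tac1 plate 2, where the richest of 16 cells held 66.1% of the transcripts. On Gcg plate 1 it was 3.64-fold higher, and on Gcg plate 2 the ratio was 0.0313 with a counting interval of 0.000785 to 0.177, from 1 transcript. The fitted change was 0.17 ± 0.62 (log2, edgeR) at 4 days and 0.47 ± 0.63 at 24 h, and 0.42 ± 0.95 on the Tac1 plates at 4 days. The sign at 4 days turned without Gcg plate 1 (-0.27) and without Tac1 plate 2 (-0.33).

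The median Tac1 cell differed from the sum. At 2000 transcripts per cell, the median cell held 7.0, 1.5, 2.0 and 3.0 Reg4 transcripts in the 4 Tac1 sums after 4 days, against 31.5 and 32.5 without BMP4. After 24 h the median was 35.0 on Tac1 plate 1 and 8.5 on the 24 h plate. All 4 medians at 4 days lay below both untreated medians, while the sums overlapped.

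The highest cells did not follow the median. The highest cell held 150, 317, 200 and 236 transcripts of 2000 after 4 days, against 133 and 115 without BMP4. After 24 h it held 200 on Tac1 plate 1 and 202 on the 24 h plate, so high cells were not particular to 4 days. Cells with at least 50 made up 14.6%, 25%, 20% and 17.8% after 4 days, against 39.7% and 37.5% without BMP4. After 24 h they made up 38.9% and 33.3%. The richest 10% of the cells held 52.3% to 68.1% of the thinned Reg4 after 4 days and 27.4% to 31.5% without BMP4. After 24 h they held 29.8% and 39.0%. Fewer cells thus held more of the Reg4 at 4 days in each of the 4 sums.

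**Figure D4:**
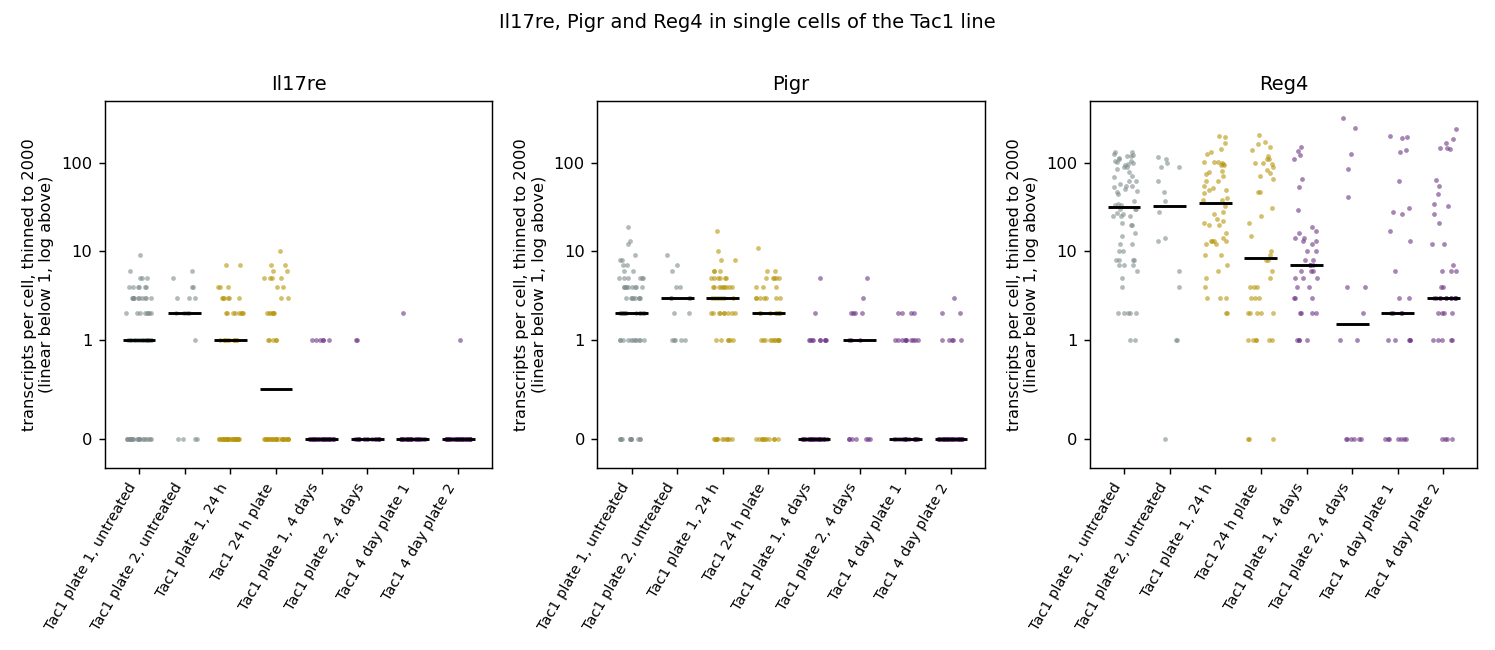
Transcripts of Il17re, Pigr and Reg4 in each kept cell of the Tac1 line, thinned to 2000 transcripts per cell (vertical axis linear below 1 and logarithmic above), by plate and condition. Each point is a cell and each bar the median. The Reg4 median is 1.5 to 7.0 after 4 days and 31.5 and 32.5 without BMP4, while the highest cells reach 150 to 317 after 4 days.

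Reg4 was higher in Tac1 cells with a Tph1 transcript than in those without, by little on some plates. On Tac1 plate 1 the median thinned Reg4 was 9.0 in cells with a Tph1 transcript and 2.0 in cells without one after 4 days (32 and 9 cells), and 37.0 and 7.0 without BMP4 (61 and 7 cells). On the first 4 day plate it was 13.0 with and 1.0 without Tph1 (21 and 9 cells), and on the second 4.0 with and 3.0 without (41 and 4 cells). The median depth of the 2 kinds of cells on Tac1 plate 1 was 6059 and 5255 transcripts without BMP4. Among cells with Tph1, the median was 9.0 and 4.0 on Tac1 plates 1 and 2 after 4 days, against 37.0 on both without BMP4.

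By leading hormone, Reg4 in Sst-led cells of Tac1 plate 1 stood at 9892 CPM after 4 days and 33569 CPM without BMP4. Sct-led cells after 4 days stood at 25524, 71327, 25127 and 11456 CPM on the 4 Tac1 plates, and Tph1-led cells of the second 4 day plate at 55985 CPM. In low-content wells Reg4 stood at 16711 and 4380 CPM on the mixed plates and at 12858 and 14683 CPM on the single-condition plates after 4 days, against 26584 and 23893 CPM without BMP4.

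In each Tac1 sum, with or without BMP4, cells rich in Kcnq1ot1 held less Reg4 than the others. The rich cells made up 31.7%, 43.8%, 16.7% and 6.67% of the Tac1 cells after 4 days, against 2.94% and 12.5% without BMP4. Their Reg4 stood at 1965, 184, 3935 and 1101 CPM after 4 days (13, 7, 5 and 3 cells). It stood at 9445 and 6458 CPM without BMP4 (2 cells each), where the other cells had 28094 and 22355 CPM. After 24 h it stood at 2682 and 7379 CPM, against 32152 and 20754 CPM in the other cells. In the other cells the Reg4 median was 12.5, 41.0, 3.0 and 3.5 after 4 days, against 31.5 and 41.5 without BMP4. The 4 day median on Tac1 plate 2 (9 such cells) thus lay close to the untreated one of that plate, and above that of Tac1 plate 1.

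In the Tac1 line the 8 goblet markers added up to 2102 to 3005 CPM after 4 days and to 1988 to 2819 CPM without BMP4, with 2 to 6 and 3 to 5 of them detected. On the Gip plate, where Reg4 was nearly absent, they added up to 4403 CPM after 4 days and 2777 CPM without BMP4. Over all plates, 30 of the 1006 kept cells had at least 2% of their transcripts from goblet markers. Those cells held 6 of the 44087 Reg4 transcripts. The part of the goblet markers in the Reg4 values was not tested.

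Other Reg genes were found outside the Tac1 line. Reg3a, an antimicrobial lectin, did not pass at 4 days, at -1.71 ± 0.84 over the 5 plates (edgeR adjusted p = 0.37), with 133 and 17.4 CPM on the Gcg plates after 4 days and 761 and 202 CPM without BMP4. Nor did Reg3b, a relative of it, at 1.09 ± 1.06 (edgeR adjusted p = 0.71), with 262 CPM and 0 transcripts after 4 days and 70.3 and 216 CPM without BMP4 on Gcg plates 1 and 2. Reg1 was counted on the Gip plate, with 7.34, 22.4 and 43.4 CPM without BMP4, after 24 h and after 4 days, and with 1 transcript elsewhere, and was not tested. Reg3a passed with no filter on low counts, at -1.69 (edgeR adjusted p = 9.4e-05). The Reg3b change turned to -2.35 without Gcg plate 1 (edgeR adjusted p = 0.33) and passed without Gcg plate 2, at 2.17 (edgeR adjusted p = 0.023). Reg2 and Reg3d had at most 5 transcripts per sum.

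Of the 36 listed Reg and antimicrobial genes other than Reg4, 21 were in the tables and 10 were tested, and Zg16 alone passed at 4 days. Zg16, a lectin-like goblet cell protein that binds bacteria, rose in the pooled fit by 3.08 ± 0.66 over untreated cells (edgeR adjusted p = 0.019) and by 4.07 ± 0.67 over 24 h (adjusted p = 0.026). Fitted by line it did not pass over untreated cells on the Gcg plates, at 2.02 ± 0.44 (edgeR adjusted p = 0.20). Nor did it on the Tac1 plates, at 1.72 ± 1.15 (edgeR adjusted p = 0.55). Tac1 plates 1 and 2 held 4 and 0 Zg16 transcripts after 4 days, against 3 and 0 without BMP4. The call over untreated cells was lost without Gcg plate 2 and without Tac1 plate 1 (edgeR adjusted p = 0.055 and 0.077), and the call over 24 h without Tac1 plate 1 (edgeR adjusted p = 0.17). With a plate left out the change over untreated cells ran from 2.02 without the Gip plate to 4.10 without Gcg plate 1, and without the plate block the call was lost (edgeR adjusted p = 0.074). Its transcripts lay in few cells: 1 cell of the Gip plate held 94.1% of them after 4 days, and on Gcg plate 2 the richest held 81.98%. The goblet markers of the Gcg plates stood at 15868 to 24470 CPM after 4 days and at 2706 to 12734 CPM without BMP4. Without the marker-rich cells the Zg16 change was 1.69 over untreated cells, and 1.13 over 24 h with the call lost (edgeR adjusted p = 0.073).

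Over all lists, 132 genes other than the 3 were named, 91 were in the tables and 51 were tested. At 4 days 1 rose and 1 fell in the pooled fit, with a median log2 change of 0.16 beside 0.00 over all genes. At 24 h none passed by edgeR or DESeq2, and 2 were under 0.05 before adjustment by edgeR. On the Tac1 plates at 4 days 1 fell, Il17rc, and on the Gcg plates none passed by edgeR, where 5 were under 0.05 before adjustment and 1 passed by DESeq2. Of 25 listed epithelial cytokine genes 13 were tested, and none passed at 4 days by edgeR, with 3 at an unadjusted p under 0.05.

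Across the 17 sums, after each line's mean was taken out, the genes most like Il17re among the 5616 genes searched (mean log2 CPM 5 or more) were Cd81 (Pearson r = 0.95), Fmo1 (0.94), Tns3 (0.94), Hpd (0.94) and Baiap3 (0.93). Those most like Pigr were Rnf149 (0.92), Dcaf11 (0.90), Rab3c (0.89), Rassf6 (0.88) and Gstk1 (0.87). Among those most like Reg4 were Rpia (0.76), Pfkfb3 (0.74) and Reg3b (0.72). In the Tac1 line Reg3b was counted only in the 4 day sum of Tac1 plate 2, with 4 transcripts, all in 1 cell. On the Gip plate no sum held more than 1 Reg3b transcript. The r of Reg3b thus does not show it beside Reg4 in cells of the Tac1 line. Il17re and Pigr were alike with r = 0.80, while r was 0.08 between Il17re and Reg4 and 0.23 between Pigr and Reg4. Sums of one plate share their library, so these values only describe these 17 sums.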

How the data were processed

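Single cells were sorted into 8 plates of 384 wells and sequenced with SORT-seq, per the labels' protocols. The authors deposited expected counts of transcripts per gene and well, which the spacing of the values shows to be molecular identifier counts corrected for identifiers hit more than once. BWA 0.6.2-r126 and the mm10 build are named in the submitters' processing notes. With 4096 possible identifiers, 100% of deposited values came back as whole identifier counts within 0.01, although the labels' protocols give a shorter identifier. No source used here names the counting tool or the use of strand.

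Expected counts of wells with at least 2000 transcripts were added up per plate and condition (at least 10 cells) and rounded. Mitochondrial and spike-in entries were left out, and of the other transcripts 1.34% to 2.05% of a plate lay outside the 16115 genes that both kinds of table list. Doublets were not called. The p-values come from edgeR 4.0.16 (quasi-likelihood F test, R 4.3.3, TMM, filterByExpr, plate as block) with Benjamini-Hochberg adjustment over all genes tested, on the 5 plates with all conditions. DESeq2 1.42.0 was an alternative. On simulated data for 4 days against untreated (7945 genes) the fit recovered 42% of 2-fold and 97% of 4-fold changes with 9 false calls. The simulated sums had no plate or line differences, and only genes with a mean log2 CPM above 5 were changed. These shares may thus not hold for the real sums or for lower genes such as Ccl28 (4.93) and Il17ra (4.79).

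A plate holds its conditions side by side, and sums of one plate deviated together (r of 0.36 to 0.73 over 13 pairs), so the plate paired them. The 3 genes, the gene lists and the tests were chosen with earlier results of these data known. Named are the 3 genes, every listed gene that passed, the other interleukin 17 receptor subunits and Reg genes, and the 5 genes most like each of the 3, of which some for Reg4 are not reported here. Ccl28, Zg16 and Il17rc passed. Single cells were thinned to 2000 transcripts with a fixed seed. The alternatives covered the cell and sum limits, scaling, low-count filter, tool, block, marker-rich and Kcnq1ot1-rich cells (the last added after the data were seen) and each plate left out. Intervals cover counting error only.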

Additional observations from a re-analysis of the deposited data

Results flagged for a closer look

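The ratios of 1 plate stood apart in direction from those of another line for Pigr and Reg4, and in each case the difference was not tested, since the Gip line has 1 plate. For Pigr after 4 days over untreated cells, the mean log2 ratio was -1.72 on the 2 Gcg plates and 0.0295 on the Gip plate. The mean of the 2 Tac1 plates was -2.07 for the same ratio, against 0.0295 on the Gip plate. For Pigr after 4 days over 24 h, the Gcg plates averaged -1.18 and the Gip plate stood at 0.42. For Reg4 after 4 days over 24 h, the Gcg plates averaged -2.19 and the Gip plate stood at 0.41, the Gip value from 4 and 2 transcripts and 1 of the Gcg values from 1 transcript after 4 days. In 12 groups large enough to look for a sample far from the others, none was found.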

How the results depend on the processing

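Of 495 values recomputed under another setting, 435 kept their side of the threshold or moved by less than the spread between replicates, 44 moved by more, 14 lost and 2 gained a call, and none of the called values reversed. Among the 435, counts of listed genes were allowed a small change. Where replicates lay far apart, this label says little. For Reg4 on the Gcg plates all 16 settings got it, with 4 day changes from -4.77 to 2.00, of which 12 kept the sign. Over all settings the pooled 4 day change lay between -3.45 and -2.47 for Il17re, between -1.64 and -0.99 for Pigr and between -0.33 and 0.92 for Reg4. The replicate block (plate) made little difference to the 3 genes: without it the 4 day change was -2.93 for Il17re, -1.19 for Pigr and 0.16 for Reg4.

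The number of listed genes that passed was 2 at 4 days, and became 4 with no filter on low counts, 1 without the replicate block, 1 with cells scaled to the same total, and 1 to 2 with a plate left out. At 24 h it was 0, and 2 with no filter. Between 24 h and 4 days it was 1, and became 3 with no filter, 0 without marker-rich cells and 0 to 2 with a plate left out. On the Gcg plates it was 0, and became 4 with no filter, 2 without marker-rich cells, 0 to 2 with a plate left out, and 1 each with DESeq2, without the replicate block, with scaled cells and without Kcnq1ot1-rich cells. On the Tac1 plates it was 1, and became 0 with cells of at least 4000 transcripts, with sums of at least 20 cells and without Kcnq1ot1-rich cells, 2 with no filter, without marker-rich cells and with scaled cells, and 0 to 2 with a plate left out.

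On the Gcg plates the 4 day change of Il17re was -1.77 without marker-rich cells and -2.34 to -1.81 with a plate left out. That of Pigr was -1.17 without marker-rich cells, -1.20 with scaled cells and -1.64 to -1.48 with a plate left out. On the Tac1 plates the change of Il17re was -4.14 with cells of at least 4000 transcripts and -4.35 with the 3 single-condition plates added. The cause of these shifts was not tested. Over all genes, the 277 calls at 4 days became 90 without Tac1 plate 1, 137 without the Gip plate, 103 without Kcnq1ot1-rich cells, 152 with cells of at least 4000 transcripts and 653 with no filter. The call of Zg16 at 4 days was lost without the replicate block, without Gcg plate 2 and without Tac1 plate 1 (edgeR adjusted p = 0.074, 0.055 and 0.077), and over 24 h without Tac1 plate 1 (edgeR adjusted p = 0.17). Few transcripts limit Il17re at 4 days in the Tac1 line and Reg4 outside it.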

Other observations

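The 24 h block of Tac1 plate 2 held 9 cells and entered no comparison. Il17re stood there at 289.6 CPM from 17 transcripts, 53.0% of them in 1 cell. Pigr stood at 698 CPM and Reg4 at 10578 CPM. In 19 wells of the same block with 200 to 2000 transcripts, Il17re stood at 600.5 CPM, Pigr at 2822 CPM and Reg4 at 26963 CPM.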
